A study of Mus musculus with 18 samples.

Results

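The genes described here encode elastin, 3 proteins of its scaffold and the 5 lysyl oxidases of mouse embryonic fibroblasts. They were chosen by name as Eln, Fbln5, Emilin1, Fbn1, Lox, Loxl1, Loxl2, Loxl3 and Loxl4, 9 genes in all, with every probe set annotated to them. These are 16 of the 45101 probe sets on the array. Of the 16, 14 reached a log2 intensity of 5 in at least 2 arrays and were kept. For 7 of the 9 genes a kept probe set carried that gene's symbol alone, and these 7 stand among the 10078 genes measured. The other two were Loxl2, whose 2 probe sets both also carry the label Gm21451 and are read as Loxl2/Gm21451, and Fbn1, which was not analysed here.

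RNA was hybridised to 18 Affymetrix arrays, 2 for each of 9 groups. The fibroblasts came from embryos at E12.5 to E14.5 without head, liver and blood clots, so each culture is a mixture of the cells left in the body. They were homozygous or heterozygous for the mutant, or wt, and each genotype was untreated or given TGFb1 at 5 ng/mL during 4 h or 24 h. The mutant is described as constitutively active; the title of the series speaks of TGFBR1, the type I receptor, with a point mutation, and the design text of TGFb1, so it is called the mutant here. The design text also speaks of vehicle treatment, with no duration. The labels do not say whether a group's arrays had separate cultures as their source, and p-values then measure only the spread between these arrays.

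Elastic fibres give skin, vessels and lung their recoil. Fibroblasts and smooth muscle cells secrete tropoelastin, the product of Eln, which is laid down on microfibrils of fibrillin with the help of fibulin-5 (Fbln5) and emilin-1 (Emilin1). Lysyl oxidases are copper enzymes that oxidise lysine side chains of elastin and collagen, after which the chains cross-link. TGFb is a known inducer of elastin and of several lysyl oxidases in mesenchymal cells.

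In these cultures Eln and Fbln5 moved in opposite directions after 24 h of TGFb1. Eln was higher in heterozygous and wt cells, by 0.78 ± 0.19 and 1.09 ± 0.19 on the log2 scale, and Fbln5 was lower in homozygous, heterozygous and wt cells, by 1.07 ± 0.18, 1.07 ± 0.18 and 0.71 ± 0.18 (standard error of the limma fit). Loxl4 fell at 4 h in homozygous cells by 0.73 ± 0.14. Eln was also the member that passed the test between genotypes: before treatment it was 2.68-fold higher in homozygous than in wt cells. The brightest Lox probe set and the Loxl3 probe set passed no test of the main fit in any comparison. The other kept Lox probe set, about equally bright, was higher at 24 h than at 4 h in wt cells by 0.71 ± 0.23 (adjusted p = 0.0366).

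The proximal promoters of Fbln5, Loxl4 and Emilin1 are shown because these were the 3 measured members with a promoter window at hand. They come from RefSeq on GRCm38.p6 and run from 250 bases before to 50 bases after an annotated start, written 5′ to 3′ on the strand of the gene. Fbln5 lies on chromosome 12 at chr12:101819070-101819369 on the minus strand, Loxl4 on chromosome 19 at chr19:42612757-42613056 on the minus strand, and Emilin1 on chromosome 5 at chr5:30913536-30913835 on the plus strand. Capitals mark matches, on either strand, to the SMAD box core CAGAC or the GC box GGGCGG, whose other-strand form is CCGCCC.
Fbln5: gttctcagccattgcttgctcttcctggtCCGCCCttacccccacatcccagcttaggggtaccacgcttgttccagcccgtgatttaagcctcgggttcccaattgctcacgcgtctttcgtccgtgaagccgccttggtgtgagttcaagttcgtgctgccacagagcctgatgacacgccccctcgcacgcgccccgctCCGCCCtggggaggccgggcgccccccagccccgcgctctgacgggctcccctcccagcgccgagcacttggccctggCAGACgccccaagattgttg
Loxl4: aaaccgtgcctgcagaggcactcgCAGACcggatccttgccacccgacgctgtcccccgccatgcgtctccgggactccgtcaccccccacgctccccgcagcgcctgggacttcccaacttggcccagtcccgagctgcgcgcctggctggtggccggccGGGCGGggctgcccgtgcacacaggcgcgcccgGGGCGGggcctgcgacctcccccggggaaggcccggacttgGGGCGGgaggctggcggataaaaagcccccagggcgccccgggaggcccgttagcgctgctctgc
Emilin1: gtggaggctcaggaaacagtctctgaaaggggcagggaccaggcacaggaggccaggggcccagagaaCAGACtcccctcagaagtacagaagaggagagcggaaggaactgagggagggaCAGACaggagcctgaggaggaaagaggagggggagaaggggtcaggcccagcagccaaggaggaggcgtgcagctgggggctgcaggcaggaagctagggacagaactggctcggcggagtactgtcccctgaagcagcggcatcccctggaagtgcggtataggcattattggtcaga

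CAGAC was found once in the printed Fbln5 window, with its first base at position 31 from the start, once in the Loxl4 window at -226, and at -182 and -129 in the Emilin1 window. GGGCGG was found at -89, -56 and -15 of Loxl4 and, on the other strand, at -221 and -48 of Fbln5, with no match in the Emilin1 window. The AP-1 element TGANTCA and the TATA box TATAAA, also searched on both strands, had no match in the 3 windows, and no 2 matches overlapped. A second annotated Fbln5 start, with its window at chr12:101818435-101818734 on the minus strand, had CAGAC at -199 and -15 and no match to the other 3 motifs. Among 32851 promoter windows of the same length, 49.6% hold CAGAC, 35.7% GGGCGG, 13.6% TATAAA and 7.81% TGANTCA. The matches are letters only and describe no binding.

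The levels are log2 GCRMA intensities, and the brightest probe set stands for a gene unless another is named. Intensities of different probe sets are not on a common scale, so levels are compared within a probe set. All 7 members with their own probe set lay above log2 7 in all 18 arrays, and the highest of the 9 group means exceeded the lowest by 2.04 for Eln, 1.22 for Fbln5 and 0.96 for Loxl4. For the others that range was 0.52 for Emilin1, 0.50 for Loxl3, 0.39 for Lox and 0.32 for Loxl1.

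**Figure D1:**
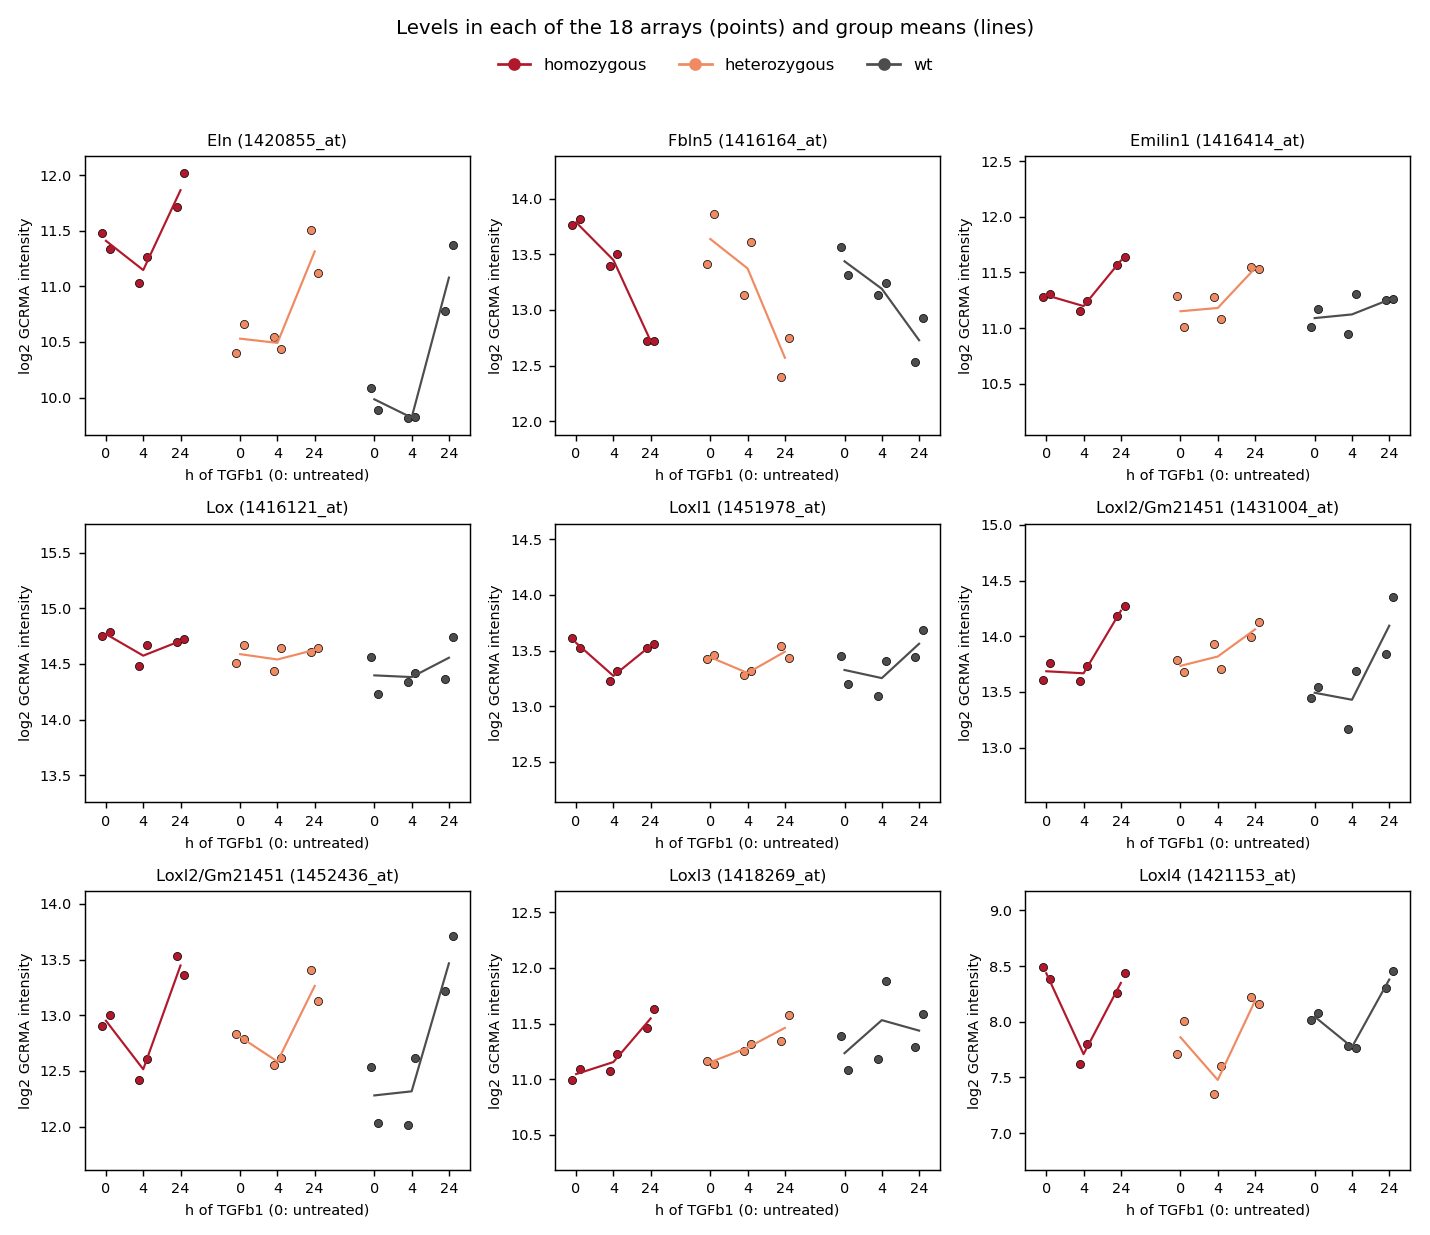
Log2 GCRMA intensity (vertical axis) of the brightest probe set of 7 members and of both Loxl2/Gm21451 probe sets in all 18 arrays, by hours of TGFb1 (horizontal axis, 0 for untreated, times evenly spaced) within each genotype; points are single arrays, lines join the means of the 2 arrays of a group, and each panel spans the same number of log2 units with its own offset. Eln is lowest in wt cells untreated and at 4 h, with arrays between 9.82 and 10.08, and Fbln5 is lowest at 24 h in each genotype.

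Eln encodes tropoelastin, the monomer of the elastic core (probe set 1420855_at, gene on chromosome 5). In homozygous cells its log2 level was 11.48 and 11.34 in the 2 untreated arrays, 11.03 and 11.26 at 4 h, and 11.71 and 12.02 at 24 h. In heterozygous cells it was 10.40 and 10.66 untreated, 10.54 and 10.44 at 4 h, and 11.51 and 11.12 at 24 h. In wt cells it was 10.08 and 9.89 untreated, 9.82 and 9.82 at 4 h, and 10.78 and 11.37 at 24 h. Both arrays at 24 h lay above both untreated arrays in each genotype, and at 4 h no array lay above the highest untreated array of its genotype.

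Ordered by mean, Eln stood at 11.86 in homozygous cells at 24 h, 11.41 in untreated homozygous cells, 11.31 in heterozygous cells at 24 h, 11.15 in homozygous cells at 4 h and 11.08 in wt cells at 24 h. The 4 lowest were untreated heterozygous cells at 10.53, heterozygous cells at 4 h at 10.49, untreated wt cells at 9.98 and wt cells at 4 h at 9.82. Arrays of neighbouring groups in this order, which the same means set, did not overlap in 4 of 8 pairs. The brightest Emilin1 and Loxl4 probe sets, each in its own order, also had 4. Those of Lox, Loxl3, Fbln5 and Loxl1 had 2, 1, 1 and 0, and the share over all probe sets was not determined. One of the separated Eln pairs was homozygous at 24 h above untreated homozygous, and another was heterozygous at 4 h above untreated wt.

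Fbln5 encodes fibulin-5, which binds tropoelastin and integrins and is needed for elastic fibre assembly in mice (probe set 1416164_at, chromosome 12). Its log2 level in homozygous cells was 13.76 and 13.81 untreated, 13.40 and 13.50 at 4 h, and 12.72 and 12.72 at 24 h. Heterozygous cells had 13.41 and 13.86 untreated, 13.14 and 13.61 at 4 h, and 12.40 and 12.75 at 24 h. Wt cells had 13.56 and 13.31 untreated, 13.14 and 13.24 at 4 h, and 12.53 and 12.93 at 24 h. In each genotype both arrays at 24 h were the lowest 2. A second Fbln5 probe set stayed between 2.38 and 2.55 in all arrays and was not kept.

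Emilin1 encodes a microfibril-associated glycoprotein found between the elastic core and its microfibrils (probe set 1416414_at, chromosome 5). At 24 h its arrays read 11.57 and 11.64 in homozygous cells, 11.55 and 11.53 in heterozygous cells and 11.25 and 11.26 in wt cells. The untreated arrays read 11.28 and 11.31, 11.29 and 11.01, and 11.01 and 11.17 in the same order of genotypes. Both mutants at 24 h thus stood above their untreated arrays and above wt cells at 24 h.

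Loxl4 is a lysyl oxidase of the same subfamily as Loxl2 and Loxl3 (probe set 1421153_at, chromosome 19). Its log2 level in homozygous cells was 8.49 and 8.38 untreated, 7.62 and 7.80 at 4 h, and 8.26 and 8.44 at 24 h. In heterozygous cells it was 7.71 and 8.01, then 7.35 and 7.60, then 8.22 and 8.16. In wt cells it was 8.02 and 8.07, then 7.78 and 7.76, then 8.31 and 8.45. All 3 genotypes had their lowest 2 arrays at 4 h.

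Lox, the founding member of the family, gave log2 levels of 14.23 to 14.79 over the 18 arrays on probe set 1416121_at. Its 2 untreated arrays read 14.75 and 14.79 in homozygous cells, 14.51 and 14.67 in heterozygous cells and 14.57 and 14.23 in wt cells. Loxl1, whose product is targeted to elastin by fibulin-5 in mice, gave 13.10 to 13.68 on probe set 1451978_at. Loxl3, which is needed for palate and spine development in mice, gave 10.997 to 11.88 on probe set 1418269_at, and its highest array was 1 of the 2 wt arrays at 4 h, beside 11.18 in the other.

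Loxl2 acts on collagen IV and on other substrates. The Loxl2/Gm21451 probe set 1452436_at read 12.90 and 13.00 in untreated homozygous cells, 12.42 and 12.61 at 4 h and 13.53 and 13.37 at 24 h. In heterozygous cells it read 12.83 and 12.78, then 12.55 and 12.62, then 13.40 and 13.12. In wt cells it read 12.53 and 12.03, then 12.02 and 12.62, then 13.22 and 13.71. The 2 arrays at 24 h were above the 4 others in each genotype. The second probe set, 1431004_at, ranged from 13.17 to 14.35 and had both its 24 h arrays highest in each genotype too.

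The responses ask how far 4 h and 24 h of TGFb1 moved these genes within a genotype. At 4 h, 2 of the 7 members passed an adjusted p of 0.05 in homozygous cells, where 37.7% of all 10078 genes did, and 0 passed in heterozygous or wt cells, where 28.8% and 20.9% of all genes did. At an unadjusted p under 0.05 the heterozygous response holds 1 member, Loxl4, and the wt response 0, beside 4150 and 3590 of all genes. At 24 h, 1 member passed in homozygous cells (8.6% of all genes), 2 in heterozygous cells (7.06%) and 2 in wt cells (11.7%). Among 7 members, 1 gene is a large share of the count.

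Eln rose at 24 h in heterozygous cells by 0.78 ± 0.19 (adjusted p = 0.0223) and in wt cells by 1.09 ± 0.19 (adjusted p = 0.00237), which are 1.72-fold and 2.13-fold. In homozygous cells its difference was 0.45 ± 0.19 with both arrays higher, and the adjusted p was 0.176. At 4 h the Eln differences were -0.26, -0.04 and -0.16 in homozygous, heterozygous and wt cells, with no adjusted p under 0.29. The dimmer Eln probe set 1420854_at gave differences at 24 h of 0.55, 1.04 and 0.65 in homozygous, heterozygous and wt cells, and none was called. The heterozygous rise lost its call without the first untreated array (0.65, adjusted p = 0.187), without the second (0.91, adjusted p = 0.0579) and without the first 24 h array (0.59, adjusted p = 0.231). With only the compared groups in the fit, Eln at 24 h was not called in heterozygous (adjusted p = 0.0652) or wt cells (adjusted p = 0.127), and array weights ended the wt call (adjusted p = 0.0636).

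Fbln5 fell at 24 h in all genotypes. The difference was -1.07 ± 0.18 in homozygous cells (adjusted p = 0.00261) and -1.07 ± 0.18 in heterozygous cells (adjusted p = 0.00302), both 2.09-fold lower. It was -0.71 ± 0.18 in wt cells (adjusted p = 0.0247), 1.63-fold lower. At 4 h the differences were -0.34, -0.26 and -0.25, none of them called. Both mutant calls remained under all 13 alternatives and without each of the 18 arrays in turn. The wt call was lost without the first untreated wt array (-0.58, adjusted p = 0.0918), without the first wt array at 24 h (-0.51, adjusted p = 0.175), with no filter (0.0528), with array weights (0.215) and with only the compared groups (0.162).

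Loxl4 fell at 4 h in homozygous cells by 0.73 ± 0.14 on the log2 scale (adjusted p = 0.00146), 1.66-fold. In heterozygous cells the difference was -0.38 ± 0.14 (adjusted p = 0.0511), and in wt cells it was -0.27 ± 0.14 (adjusted p = 0.171). The 4 h arrays lay below the untreated arrays in each genotype. The homozygous call remained under all 13 alternatives and without each array. By 24 h the differences from untreated cells were -0.09, 0.33 and 0.33 in homozygous, heterozygous and wt cells, none called. The second Loxl4 probe set gave -0.56 ± 0.23 in homozygous cells at 4 h (adjusted p = 0.0801).

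Loxl1 was called lower in homozygous cells at 4 h, by -0.30 ± 0.11 (adjusted p = 0.0468). This call sat close to the threshold: it remained under 7 of 13 alternatives and in 6 of 18 fits with 1 array left out, and without the first untreated homozygous array the value was -0.25 (adjusted p = 0.204). The other Loxl1 probe set read 0.21 ± 0.17 in the same comparison, the opposite direction, with an adjusted p of 0.342.

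The remaining members were not called in a response. Emilin1 differed at 24 h by 0.31 ± 0.12, 0.39 ± 0.12 and 0.17 ± 0.12 in homozygous, heterozygous and wt cells (adjusted p of 0.158, 0.087 and 0.438). Loxl3 differed at 24 h by 0.50 ± 0.19, 0.31 ± 0.19 and 0.20 ± 0.19 (adjusted p of 0.128, 0.453 and 0.542), and both 24 h arrays were higher in the 2 mutants, while the wt arrays overlapped. Lox lay within 0.20 of its untreated level in all 6 responses on its brightest probe set. Its other kept probe set gave -0.61 ± 0.23 at 4 h in homozygous cells (adjusted p = 0.0619).

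For Loxl2/Gm21451 the fit on all 18958 kept probe sets applies. At 24 h in wt cells it rose by 1.19 ± 0.21 on probe set 1452436_at (adjusted p = 0.00387) and by 0.60 ± 0.17 on 1431004_at (adjusted p = 0.0431), where 9.14% of all kept probe sets were called. Homozygous cells gave 0.50 and 0.54 (adjusted p of 0.211 and 0.0831, background 6.44%), and heterozygous cells gave 0.46 and 0.33 (adjusted p of 0.313 and 0.404, background 5.07%). At 4 h neither probe set was called in homozygous, heterozygous or wt cells, where 35%, 26.5% and 17.1% of kept probe sets were.

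**Figure D2:**
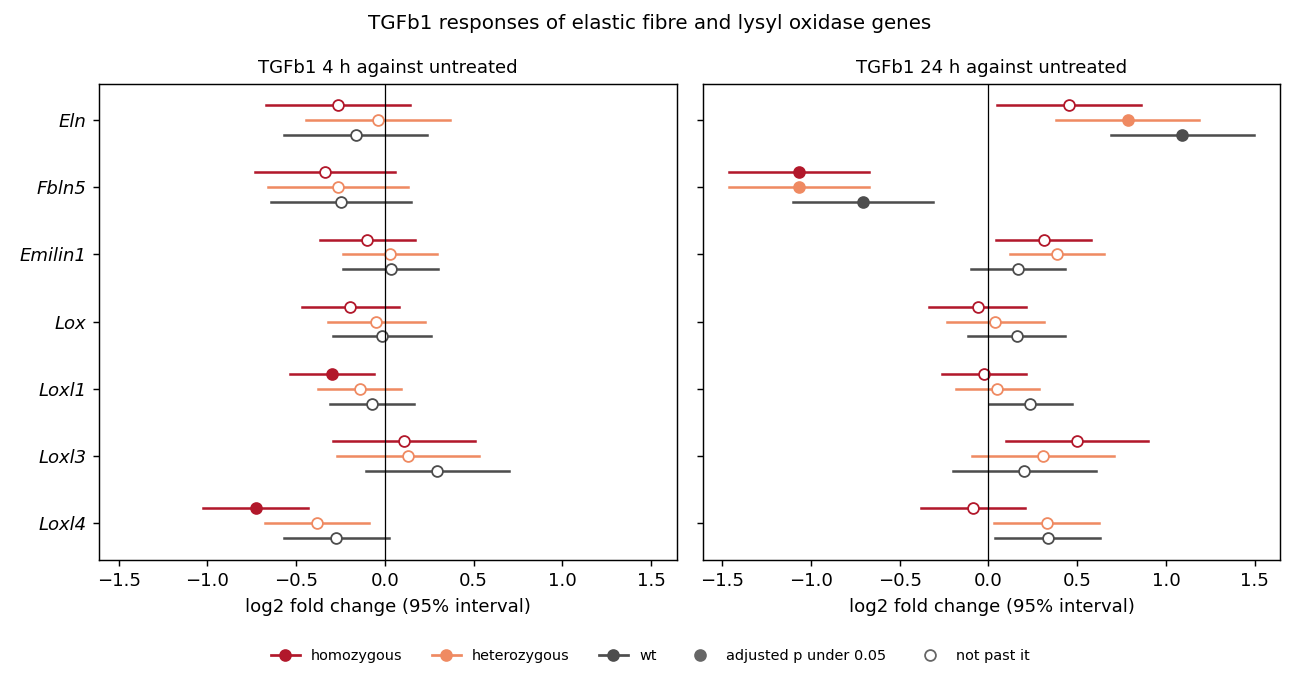
Log2 fold change (horizontal axis) of the 7 members at 4 h and 24 h of TGFb1 against untreated cells in each genotype, with 95% intervals of the limma fit on all 18 arrays; filled points have an adjusted p under 0.05. At 24 h Eln lies right of 0 and Fbln5 left of 0 in all genotypes, with the homozygous Eln point open at 0.45.

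The median log2 difference of the 7 members at 24 h was -0.03 in homozygous, 0.31 in heterozygous and 0.20 in wt cells, beside -0.02, 0.01 and -0.06 over all 10078 genes. At 4 h it was -0.26, -0.05 and -0.07, beside 0.03, 0.02 and -0.03 over all genes. These medians describe the members and are not tested.

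The comparison of 24 h with 4 h follows the time course within a genotype and shares the treated arrays with the responses above. Of the 7 members, 4 were called in homozygous cells (36.9% of all genes), 4 in heterozygous cells (32.2%) and 3 in wt cells (34.3%). Eln was higher at 24 h than at 4 h by 0.72 ± 0.19, 0.82 ± 0.19 and 1.26 ± 0.19 in homozygous, heterozygous and wt cells (adjusted p of 0.0102, 0.00568 and 0.000554). Loxl4 was higher by 0.64 ± 0.14, 0.71 ± 0.14 and 0.61 ± 0.14 (adjusted p of 0.00339, 0.00219 and 0.00527). In wt cells the Loxl4 call was lost with array weights (adjusted p = 0.0854) and with only the compared groups in the fit (0.107), and the Eln call with only the compared groups (0.0811).

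Fbln5 was lower at 24 h than at 4 h by -0.73 ± 0.18 in homozygous and -0.80 ± 0.18 in heterozygous cells (adjusted p of 0.00836 and 0.00573), and its wt difference of -0.46 ± 0.18 had an adjusted p of 0.0667. Emilin1 was higher by 0.41 ± 0.12 and 0.36 ± 0.12 in homozygous and heterozygous cells (adjusted p of 0.0208 and 0.0418), and by 0.13 ± 0.12 in wt cells (adjusted p = 0.429). Loxl1 was higher by 0.31 ± 0.11 in wt cells (adjusted p = 0.0431). Single arrays decided several of these calls. Without the second homozygous array at 24 h Eln gave 0.56 (adjusted p = 0.0963) and without the first at 4 h 0.60 (0.0864), and without the first heterozygous array at 24 h it gave 0.63 (0.0657). Fbln5 in homozygous cells gave -0.68 (0.0538) without the second array at 4 h, and in heterozygous cells -0.57 (0.0648) without the second at 4 h and -0.63 (0.064) without the first at 24 h. Emilin1 in homozygous cells lost its call whichever of its 4 treated arrays was left out (adjusted p of 0.0547 to 0.12), and its heterozygous call remained in 7 of 18 fits, with 0.25 (adjusted p = 0.238) without the second array at 4 h. Loxl1 in wt cells remained called in 4 of 18 fits, and gave 0.15 (0.291) without the first wt array at 4 h and 0.19 (0.297) without the second at 24 h.

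Loxl2/Gm21451 was also higher at 24 h than at 4 h, on probe set 1452436_at by 0.93 ± 0.21, 0.68 ± 0.21 and 1.15 ± 0.21 in homozygous, heterozygous and wt cells (adjusted p of 0.00516, 0.0276 and 0.00201). On 1431004_at the differences were 0.56, 0.24 and 0.67 (adjusted p of 0.0233, 0.304 and 0.0112). Among all kept probe sets, 33.3%, 29.1% and 32.5% were called. The dimmer Eln probe set was higher at 24 h than at 4 h in homozygous and wt cells by 1.11 ± 0.30 and 1.39 ± 0.30 (adjusted p of 0.0151 and 0.0053), and the other Lox probe set in wt cells by 0.71 ± 0.23 (adjusted p = 0.0366).

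The genotype comparisons ask whether the mutant changes the level at a fixed treatment. In homozygous against wt cells, 1 of 7 members was called untreated (1.77% of all genes) and 1 at 4 h (1.43%), and 0 at 24 h (0.486%). At 24 h Eln and Emilin1 had an unadjusted p under 0.05, as did 1174 of all 10078 genes. The called member was Eln both times. It was higher by 1.42 ± 0.19 in untreated homozygous cells (adjusted p = 0.00388), 2.68-fold, and by 1.33 ± 0.19 at 4 h (adjusted p = 0.00429), 2.51-fold. At 24 h the difference was 0.79 ± 0.19 (adjusted p = 0.0965). Both homozygous arrays lay above both wt arrays at each time. The untreated call was lost without the first untreated homozygous array (1.35, adjusted p = 0.0538), and the call at 4 h without the second homozygous array at 4 h (1.21, adjusted p = 0.0861). Array weights gave adjusted p of 0.063 untreated and 0.102 at 4 h, and fits with only the compared groups gave 0.134 and 0.213. On the dimmer Eln probe set the untreated difference was 1.07 ± 0.30 (adjusted p = 0.11).

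In heterozygous against wt cells 0 of 7 members were called untreated (0.923% of all genes), at 4 h (1.43%) or at 24 h (1.22%). At an unadjusted p under 0.05 there were 1 (Eln), 2 (Eln and Loxl4) and 1 (Emilin1), beside 980, 1259 and 906 of all 10078 genes. Eln differed by 0.54 ± 0.19, 0.67 ± 0.19 and 0.24 ± 0.19 (adjusted p of 0.307, 0.123 and 0.841). Its arrays did not overlap between the 2 genotypes untreated and at 4 h and overlapped at 24 h. On the dimmer Eln probe set the differences were 0.10 ± 0.30, 1.19 ± 0.30 and 0.49 ± 0.30, none called, and the arrays overlapped only untreated.

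Homozygous and heterozygous cells were compared directly as well, and 0 members were called, beside 0%, 0.0198% and 0.0298% of all genes untreated, at 4 h and at 24 h. Eln was higher in homozygous cells by 0.88 ± 0.19, 0.65 ± 0.19 and 0.55 ± 0.19 (adjusted p of 0.652, 1 and 1; unadjusted p of 0.000434, 0.004 and 0.0116), and the arrays did not overlap at any of the 3 times. On the dimmer Eln probe set the differences were 0.96 ± 0.30, 0.07 ± 0.30 and 0.47 ± 0.30, and its arrays overlapped at 24 h. Loxl4 differed by 0.58 ± 0.14 in untreated cells (adjusted p = 0.833, unadjusted p = 0.00102), and on its second probe set by 0.27 ± 0.23. At an unadjusted p under 0.05 were these 2 members untreated, and Eln alone at 4 h and 24 h. Of all 10078 genes, 340, 303 and 233 were under it untreated, at 4 h and at 24 h.

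**Figure D3:**
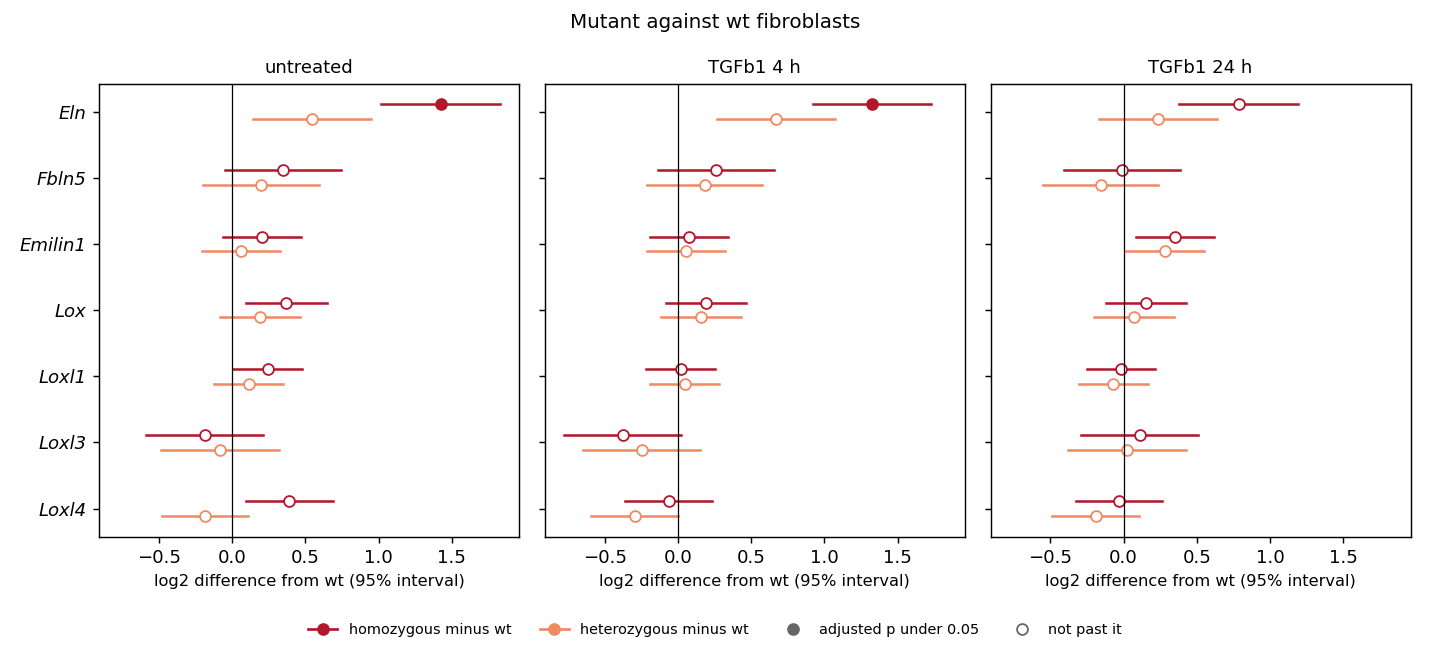
Log2 difference from wt (horizontal axis) of the 7 members in homozygous and heterozygous cells, untreated and at 4 h and 24 h of TGFb1, with 95% intervals of the limma fit on all 18 arrays; filled points have an adjusted p under 0.05. Eln in homozygous cells is the filled gene, at 1.42 untreated and 1.33 at 4 h.

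Lox, Loxl1 and Loxl4 differed between untreated homozygous and wt cells by 0.37 ± 0.13, 0.24 ± 0.11 and 0.39 ± 0.14, with both homozygous arrays above both wt arrays and adjusted p of 0.151, 0.259 and 0.156. Fbln5 differed by 0.35 ± 0.18 (adjusted p = 0.337). The median difference of the 7 members was 0.35, beside -0.02 over all genes, and it was not tested. The share of all genes with homozygous arrays all above wt arrays was not determined. Loxl2/Gm21451 was not called in any genotype comparison against wt. Its difference in untreated homozygous cells was 0.67 ± 0.21 on 1452436_at (adjusted p = 0.132) and 0.19 ± 0.17 on 1431004_at. The share of kept probe sets called was 0.744%, 0.907% and 0.269% for homozygous against wt untreated, at 4 h and at 24 h, and 0.586%, 0.891% and 0.654% for heterozygous against wt.

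Whether a response differed between mutant and wt cells was tested as an interaction. None of the 7 members was called in the 4 interactions, and 0% of all 10078 genes were called in each. The difference in the Eln response at 24 h, homozygous minus wt, was -0.64 ± 0.26 (adjusted p = 0.859, unadjusted p = 0.0315), with a 95% interval from -1.21 to -0.07. For heterozygous minus wt it was -0.31 ± 0.26 (adjusted p = 0.999). The dimmer Eln probe set did not show these differences, with -0.10 ± 0.43 for homozygous and 0.39 ± 0.43 for heterozygous minus wt. The Loxl4 responses differed, homozygous minus wt, by -0.45 ± 0.19 at 4 h and -0.42 ± 0.19 at 24 h (adjusted p of 0.579 and 0.864). The second Loxl4 probe set gave 0.01 ± 0.33 at 4 h and -0.32 ± 0.33 at 24 h. At an unadjusted p under 0.05 the interactions of homozygous cells held 1 member at 4 h (Loxl4) and 2 at 24 h (Eln and Loxl4), and those of heterozygous cells 0 at both times. Of all genes they held 847 and 577 at 4 h and 24 h in homozygous cells, and 347 and 311 in heterozygous cells. The larger wt value for Eln at 24 h on its brightest probe set is therefore not shown to differ from the mutant values.

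Marker genes of cell types were read on the same arrays. All 8 fibroblast markers lay above log2 5 in both untreated arrays of each genotype. At 4 h 7 of 8 did in each genotype, and Pdgfra lay below it in both arrays of homozygous and heterozygous cells. All 6 smooth muscle markers lay above it in every group. Of 6 endothelial markers, Pecam1, Cdh5, Kdr, Tek and Tie1 lay below it throughout, while Emcn read 8.24 to 9.67. All 10 macrophage markers lay above log2 5 in untreated homozygous and heterozygous cells, and 7 of 10 in untreated wt cells. Their summed intensity was 7982 to 8708, 11090 to 14420 and 1406 to 3446 in untreated homozygous, heterozygous and wt arrays. At 4 h it was 10690 to 10870, 13030 to 15800 and 1455 to 4905, and at 24 h 6157 to 6530, 9207 to 12350 and 973.6 to 2349. With the mean of these markers as a covariate, chosen after seeing the data, the Eln difference between homozygous and wt cells was 1.09 untreated (adjusted p = 0.0249) and 0.98 at 4 h (adjusted p = 0.0302). Under the same covariate Loxl3 was lower in homozygous than in wt cells by -0.77 untreated (adjusted p = 0.0245) and -0.98 at 4 h (adjusted p = 0.00686), while its differences without it were -0.19 and -0.38 and were not called. The marker sums of wt arrays did not overlap those of mutant arrays, so this fit cannot separate the markers from the genotype. The part of the macrophage markers in these differences was not tested. In bulk RNA fewer cells of a type and less RNA per cell cannot be told apart.

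The wider elastic fibre and microfibril list held 29 other genes, of which 21 were measured. At 24 h, 1 was higher and 4 were lower in homozygous cells, 1 and 4 in heterozygous cells and 2 and 4 in wt cells, which is 5, 5 and 6 of 21, where 8.6%, 7.06% and 11.7% of all genes were called. The genes that fell were Efemp1, Fbn2, Emilin2 and Fbln1 in each genotype. Of those higher, Ltbp2 rose in homozygous and wt cells by 1.0 ± 0.26 and 0.87 ± 0.26 (adjusted p of 0.0296 and 0.047), and Vcan, the large proteoglycan versican, in heterozygous and wt cells by 0.67 ± 0.12 and 0.70 ± 0.12 (adjusted p of 0.00362 and 0.0021). Ltbp2 in heterozygous cells was not called, with means of 11.34 untreated and 12.24 at 24 h. Vcan in homozygous cells was not called either, with 11.73 and 11.93. In both cases the 2 arrays at 24 h lay above the untreated arrays. Fbln1, Ltbp2 and Vcan were named after their values were seen. The list's median difference was -0.14, -0.02 and -0.02 in homozygous, heterozygous and wt cells.

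Efemp1 encodes fibulin-3, a relative of fibulin-5. Its log2 level at 24 h was 10.49 and 9.69 in homozygous cells, 10.40 and 10.06 in heterozygous cells and 10.09 and 10.38 in wt cells. Untreated it was 12.49 and 11.89, 11.99 and 12.33, and 12.32 and 12.34 in the same order. The differences were -2.10 ± 0.28, -1.94 ± 0.28 and -2.10 ± 0.28 (adjusted p of 0.000502, 0.001 and 0.000438), and the 24 h arrays lay below all untreated arrays.

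Fbn2 encodes fibrillin-2, a microfibril protein of embryonic tissue. At 24 h it was lower by -1.75 ± 0.19, -0.98 ± 0.19 and -1.07 ± 0.19 in homozygous, heterozygous and wt cells (adjusted p of 0.000109, 0.00734 and 0.00311). It was already lower at 4 h in homozygous and heterozygous cells, by -0.88 ± 0.19 and -0.63 ± 0.19 (adjusted p of 0.00348 and 0.0267). Fbln1, the fibulin-1 gene, was lower at 24 h by -0.81 ± 0.15, -0.73 ± 0.15 and -0.58 ± 0.15 (adjusted p of 0.00365, 0.00888 and 0.023).

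Emilin2, a relative of Emilin1, was lower at 24 h by -1.27 ± 0.20 in homozygous and -1.06 ± 0.20 in heterozygous cells (adjusted p of 0.00145 and 0.00569). In wt cells it was at least 1.73-fold lower, because both wt arrays at 24 h, at 3.46 and 3.88, lay under log2 5 (adjusted p = 3.57e-05). Between genotypes it was higher untreated in homozygous and heterozygous than in wt cells, by 1.10 ± 0.20 and 1.77 ± 0.20 (adjusted p of 0.0243 and 0.00123). At 24 h it was at least 1.54-fold and 2.83-fold higher in homozygous and heterozygous than in wt cells. The macrophage marker sum ordered the genotypes in the same way as Emilin2 in untreated cells, and its part in the Emilin2 differences was not tested.

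At 4 h the same list had 1 gene higher and 5 lower in homozygous cells, 1 and 2 in heterozygous cells and 0 in either direction in wt cells. These are 6, 3 and 0 of 21, where 37.7%, 28.8% and 20.9% of all genes were called. Besides Fbn2, those lower in homozygous cells were Hspg2 (perlecan) by -0.89 ± 0.21, Fbln2 by -0.48 ± 0.12, Vcan by -0.47 ± 0.12 and Bgn (biglycan) by -0.19 ± 0.06 (adjusted p of 0.00658, 0.00674, 0.00796 and 0.0276). Vcan was lower in heterozygous cells too, by -0.43 ± 0.12 (adjusted p = 0.0161). Mfap3 was higher in homozygous and heterozygous cells by 0.72 ± 0.14 and 0.55 ± 0.14 (adjusted p of 0.00167 and 0.0105). The list's median difference at 4 h was -0.14, 0.06 and 0.01. Fbln2 and Bgn were named after their values were seen.

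Of 8 genes listed for lysyl oxidase maturation and partners, 7 were measured. Bmp1, whose protease cleaves the propeptide of Lox, rose at 24 h in heterozygous and wt cells by 0.47 ± 0.11 and 0.65 ± 0.11 (adjusted p of 0.0241 and 0.00282). It was the 1 gene of the list called in each (7.06% and 11.7% of all genes), and 0 were called in homozygous cells (8.6%). At 4 h in wt cells Bmp1 rose by 0.36 ± 0.11 and Atp7a, the pump that supplies copper to secreted enzymes, fell by 0.52 ± 0.17 on the log2 scale (adjusted p of 0.0414 and 0.0457). Fn1, fibronectin, was lower at 4 h in homozygous and heterozygous cells by -0.34 ± 0.06 and -0.23 ± 0.06 (adjusted p of 0.0014 and 0.017), and Thbs1 in homozygous cells by -0.28 ± 0.10 (adjusted p = 0.0366). None of the 7 was called in a comparison of mutant with wt cells, where 0.486% to 1.77% of all genes were.

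**Figure D4:**
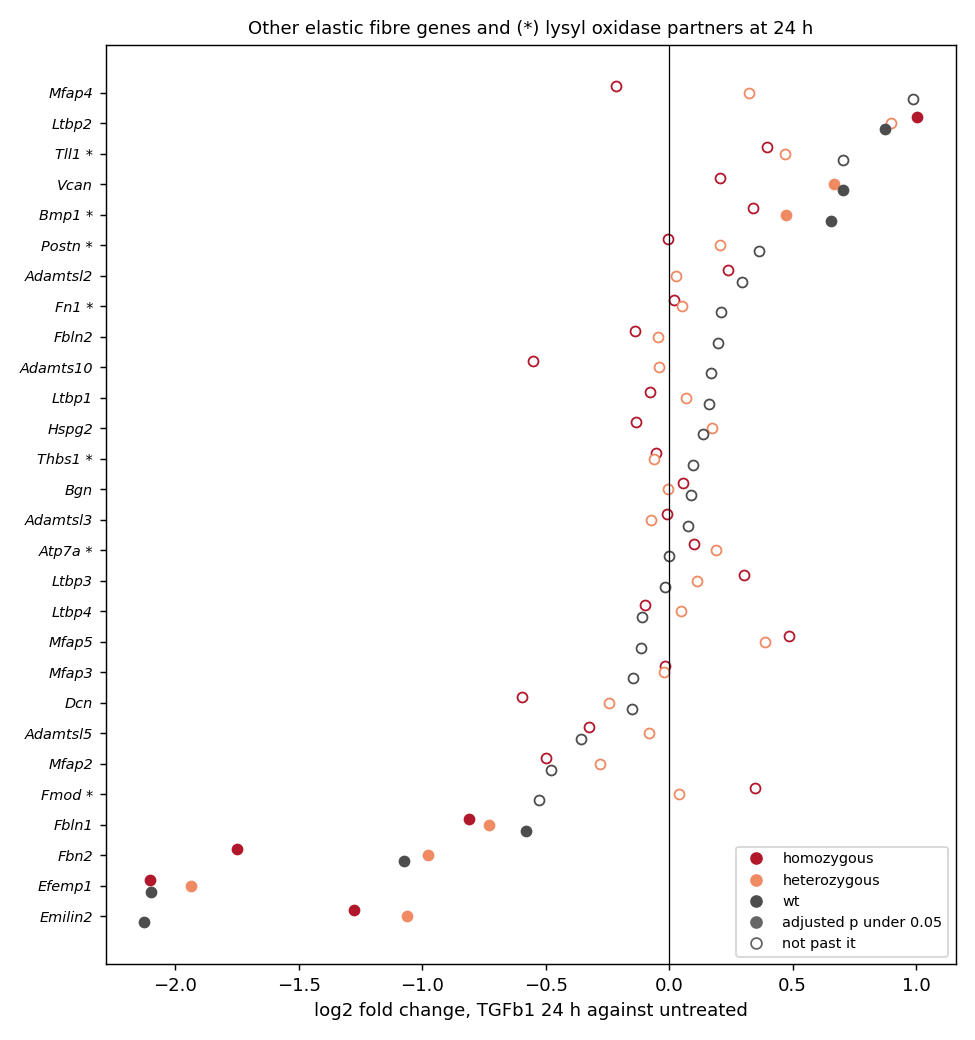
Log2 fold change at 24 h of TGFb1 against untreated cells (horizontal axis) of the 21 measured genes of the wider elastic fibre list and the 7 of the lysyl oxidase partner list (marked with a star), which are not members, in each genotype; filled points have an adjusted p under 0.05, and rows run from the highest to the lowest wt value. Efemp1, Fbn2, Emilin2 and Fbln1 are filled left of 0 in all 3 genotypes; the wt point of Emilin2 is uncertain in size, because its wt arrays at 24 h lie under log2 5.

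Of 10 enzymes listed as degrading elastin, 7 were measured. Mmp9, gelatinase B, rose at 4 h by 1.16 ± 0.33, 1.17 ± 0.33 and 1.45 ± 0.33 in homozygous, heterozygous and wt cells (adjusted p of 0.0159, 0.0191 and 0.0101). At 24 h it was higher by 2.12 ± 0.33, 2.00 ± 0.33 and 2.86 ± 0.33 (adjusted p of 0.00145, 0.0025 and 0.000153). Mmp2, gelatinase A, rose at 24 h in wt cells by 0.50 ± 0.12 (adjusted p = 0.0206) and was lower at 4 h in homozygous cells by -0.36 ± 0.12 (adjusted p = 0.0382).

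Between genotypes Ctss, cathepsin S, was higher in heterozygous than in wt cells by 2.40 ± 0.41 untreated (adjusted p = 0.0135), and in homozygous than in wt cells by 1.89 ± 0.41 (adjusted p = 0.0422). Mmp2 was higher in untreated homozygous than in wt cells by 0.64 ± 0.12 (adjusted p = 0.0305). Ctss is abundant in macrophages, and the marker sums given above were also highest in heterozygous and lowest in wt cells; their part in the Ctss difference was not tested. The elastin receptor complex, Glb1, Neu1 and Ctsa, had 0 of 3 genes called in the 6 responses and in the 6 comparisons with wt. Over all genes 7.06% to 37.7% were called in these responses and 0.486% to 1.77% in these comparisons. For 24 h against 4 h, 1 of 3 was called in heterozygous and in wt cells (32.2% and 34.3% of all genes) and 0 in homozygous cells (36.9%).

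Likeness of level was described by Pearson's r over the 9 group means for Eln and Fbln5, whose means span at least 1 log2 unit. The 2 genes most like Eln were Tgfb2 (0.979) and Cxxc5 (0.967), and the 2 most like Fbln5 were Sema3c (0.976) and Rtl3 (0.976). The lowest group mean of Rtl3 was 3.69, under log2 5. These r were picked as the highest among all genes measured other than the members, and they were not tested. Among the members, Eln had an r of 0.90 with Lox, 0.83 with Emilin1 and -0.37 with Fbln5. The 9 means come from the same 18 arrays for all genes.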

How the data were processed

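RNA was measured on 18 Affymetrix mouse arrays, in 9 groups of 2 taken from the labels. The deposited values are linear intensities, background-corrected, normalized and summarized by the authors with GCRMA, per the submitters' processing notes, with no version stated. Scan dates and other batches are unknown here and were not modelled.

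Values were converted to log2. Probe sets with a log2 of at least 5 in at least 2 arrays were kept (18958 of 45101; 39.48 to 40.33% of probe sets reached it per array). The brightest probe set with a single symbol stood for a gene, which gave 10078 genes; 34945 probe sets carry a single symbol, 932 several and 9160 none. limma 3.58.1 (R 4.3.3) was used: one model of the 9 group means took in all arrays at once, leaving 9 residual degrees of freedom, with two-sided moderated tests (eBayes with an intensity trend) adjusted by Benjamini-Hochberg over all genes; calls are those under an adjusted p of 0.05. A second fit used every kept probe set. The spread was pooled over groups, although wt pairs varied more (root mean square SD 0.321 to 0.387) than mutant pairs (0.183 to 0.222). Errors after ± are standard errors of the fit, 2 arrays against 2. A fold against a group with both arrays below log2 5 is a bound from that level. The fit was tested on simulated data.

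The members and gene lists were chosen with earlier results of these data known. Members are all named. Of the lists, the rule was to name the 4 called genes with the largest change per comparison. For members spanning at least 1 log2 it was the 2 genes with the highest r. Values of list genes for 24 h against 4 h are not printed. There the rule also picked Adamtsl5 in wt cells and Mmp12 and Ctsk in homozygous cells, all lower at 24 h. Replicate numbers were checked for pairing by the correlation of same-numbered arrays' deviations from their group means. Within genotype it was 0.5443 to 0.6101 in the 3 homozygous pairs of groups and 0.3755 to 0.4527 in the 3 heterozygous pairs. In wt cells it was 0.5713 for 4 h with 24 h but -0.4916 and -0.6631 for untreated with 4 h and with 24 h. Across genotypes it was -0.1918 to 0.1864. Within genotype 7 of 9 pairs exceeded 0.1, all but those of the untreated wt group with the treated wt groups. Because not every pair exceeded 0.1, the main fit has no block. Arrays of a genotype were thus correlated across treatments, and that fit does not model this. Genotype differences at the 3 times may therefore not be separate observations. Whether arrays within a genotype shared a source was not tested. Promoters are from RefSeq (4 of 9 members matched). Alternatives covered the filter, the probe set rule, normalization, the log offset of 16, the variance model, the arrays in the fit, replicate blocks, and, added after the data were seen, a crossed block and a macrophage marker covariate.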

Additional observations from a re-analysis of the deposited data

How the results depend on the processing

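Under 13 alternatives, 1912 of 2002 member values kept their direction and their side of the threshold, 29 lost a call, 59 gained one and 2 turned direction with a call. The 2 were Loxl1 in heterozygous and homozygous against wt cells at 4 h, at -0.4031 and -0.3512 with the macrophage marker covariate, which was added after the data were seen. The cause of the changed counts was not tested. The counts here and with arrays left out are not set against the share of all genes called in the same fit. They therefore show no trait particular to the members. Members called in wt cells at 24 h (2) became 1 with no filter, 0 with array weights, 0 with only the groups compared and 4 with the covariate. In heterozygous cells at 4 h (0) they became 1 with quantile normalization, no intensity trend, array weights, the replicate block or the covariate and 2 with the crossed block. At 24 h in heterozygous cells (2) they became 1 with only the groups compared and 4 with the covariate. In homozygous cells at 4 h (2) they became 1 with no filter, the mean of probe sets, every kept probe set, no trend or the replicate block. At 24 h in homozygous cells (1) they became 4 with array weights, 2 with the crossed block, 3 with only the groups compared and 3 with the covariate. In wt cells at 4 h (0) the crossed block gave 2. For heterozygous against wt cells (0 each) the covariate gave 1 untreated, 2 at 4 h and 1 at 24 h, and the crossed block 1 at 4 h. For homozygous against wt cells, untreated (1) became 0 with array weights or only the groups compared, 4 with the crossed block and 2 with the covariate; 4 h (1) became 0, 0, 3 and 3 in the same order; and 24 h (0) became 1 with array weights, the crossed block or the covariate. For 24 h against 4 h in wt cells (3) array weights gave 1 and only the groups compared 0, and for untreated homozygous against heterozygous cells (0) array weights gave 1.

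With each array left out in turn, members called ranged from 1 to 2 (homozygous, 4 h), 1 to 2 (homozygous, 24 h), 0 to 1 (heterozygous, 4 h), 1 to 3 (heterozygous, 24 h), 0 to 1 (wt, 4 h) and 1 to 2 (wt, 24 h). For 24 h against 4 h they ranged from 2 to 6, 1 to 4 and 2 to 3 in homozygous, heterozygous and wt cells. Against wt they ranged from 0 to 2, 0 to 2 and 0 to 1 in homozygous cells untreated, at 4 h and at 24 h, and from 0 to 0, 0 to 1 and 0 to 0 in heterozygous cells. They were 0 to 0 for the interactions and for homozygous against heterozygous cells. With the replicate block over all groups, Loxl1 at 4 h in homozygous cells (adjusted p = 0.054), and for 24 h against 4 h Loxl1 in wt cells (0.0501) and Emilin1 in heterozygous cells (0.0507) lost their calls, and Loxl4 at 4 h in heterozygous cells (0.0397) and Fbln5 for 24 h against 4 h in wt cells (0.035) gained one. With the block within genotype, Loxl1 lost both its calls (adjusted p of 0.0684 and 0.0636), and Emilin1 at 24 h in heterozygous cells (0.0396), Fbln5 at 4 h in homozygous cells (0.0468) and Fbln5 for 24 h against 4 h in wt cells (0.0145) gained one. The crossed block exchanges the numbers of the untreated wt arrays. Among its gains were Fbln5 at 4 h in homozygous, heterozygous and wt cells (adjusted p of 0.00301, 0.0137 and 0.0244). Others were Fbln5, Lox and Loxl1 in untreated homozygous against wt cells (0.0109, 0.00987 and 0.0355). The number of arrays limits the precision, and probe sets near log2 5 are little above background.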
